A study of Mus musculus with 11 samples.

Results

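Potassium channels set the resting potential of heart muscle cells and end each action potential, and the genes described here are those that encode them or their partners. They were chosen by name and level: a symbol beginning with Kcn and a mean normalized count of at least 5 over the 11 libraries. Of 95 such symbols among the 23420 genes of the table, 51 qualified, 39 were above 0 but had a mean under 5, and 5 stood at 0 in every library. The last genes inside this limit were Kcnn4 and Kcns3 (means of 5.50 and 6.09), and the first outside it were Kcne3 and Kcnrg (4.87 and 4.73). Kcnma1 and Kcne2, a large-conductance channel and an accessory subunit, also fell below the limit.

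RNA of mouse heart was sequenced after removal of ribosomal RNA. The 4 groups were Control (2 libraries, floxed Cd36 with no Cre given), EC KO (3 libraries, floxed Cd36 with Tie2-cre, for deletion in endothelial cells), CM KO (3 libraries, floxed Cd36 with MHC-cre, for deletion in cardiomyocytes) and Total KO (3 libraries, labelled as a total knockout with floxed Cd36 and no account of how the deletion was made). Cd36 is a membrane protein through which cells take up long-chain fatty acids, and the study asks what its loss from endothelial cells does to lipid and glucose handling. Tie2-cre is also known to act in blood cells, the Control mice carried neither Cre by their labels, and age and sex were not given. No label says that libraries of a group came from separate animals, so p-values measure the spread between libraries.

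Recovered reads numbered 11157062 to 20105673 in 10 libraries and 2268403 in EC KO replicate 1. The targeted gene, Cd36, read 44530 and 35425 in the Control libraries, 30308, 27804 and 25758 in those of EC KO, 15792, 21610 and 21363 in those of CM KO, and 18847, 23452 and 21266 in those of Total KO. Every knockout library lay below both Control libraries, yet the fall passed limma's test in CM KO (adjusted p = 0.00863) and did not pass for EC KO, with 0.298, nor for Total KO, with 0.0809. By DESeq2 on the recovered reads the fall passed in Total KO too (adjusted p = 1.739e-05), and by edgeR on the same reads it did not. Much Cd36 RNA remained in every knockout library, and the Total KO values overlapped those of CM KO. These values alone therefore do not show a full loss of Cd36 in the group labelled as a total knockout. CM KO stood apart on the first principal component (24.3 to 58.9, against -40.4 to 1.81 in the other 8 libraries), with CM KO replicate 1 farthest out. EC KO replicate 1, the library of fewest reads, lay at -40.4 on the first component and at 46.3 on the second, where the other 10 libraries lay between -15.4 and 18.1. The genes listed as ventricular markers were Myl2, Myl3, Myh6, Tnni3, Tnnt2, Actc1, Ryr2 and Irx4. They summed to 636513 to 937344 in CM KO and 1032276 to 1065323 in Control. Fibroblast markers summed to 27082 to 85636 in CM KO and 17039 to 17769 in Control. Macrophage markers summed to 6822 to 13214 in CM KO and 3657 to 3988 in Control. The atrial list summed to 106650 to 216887 in CM KO and 6547 to 10760 in Control, and to 666 to 1137 and 509 to 568 without Nppa, a sum added after the values were seen. Of its 8 genes 5 were tested, and 3 were higher in CM KO than in Control: Mybphl (4.57; limma, adjusted p = 0.00882), Nppa (4.14; limma, adjusted p = 0.00109) and Dkk3 (2.24; limma, adjusted p = 0.0235). Myl4 and Stard10 were not called (-0.04 and -0.45), and Sln (0 to 12.4), Bmp10 (0 to 1.64) and Myl7 (0 to 31.8) lay below the test's filter, with the highest Sln and Myl7 values in EC KO replicate 3. The part of atrial genes in the channel differences was not tested.

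As background, channels conduct potassium through a selectivity filter. Voltage-gated channels (Kcna, Kcnc, Kcnd, Kcnh, Kcnq and others) open on depolarization and carry the repolarizing currents. Inward rectifiers (Kcnj) hold the resting potential and include channels gated by ATP and by G proteins, 2-pore-domain channels (Kcnk) carry leak currents, and Kcnip, Kcnab and Kcne proteins modify voltage-gated channels. In mouse ventricle the fast transient outward current, carried by Kcnd2 and Kcnd3 with Kcnip2, is the main current of early repolarization.

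The longest reading frame of each gene's longest coding transcript (GENCODE M21, mm10) was searched for the filter signature. All 21 voltage-gated pore subunits and all 8 inward rectifiers held 1 match, all 6 2-pore-domain channels held 2, and 6 of 7 calcium- or sodium-activated members held 1. None of the 8 accessory subunits held one, nor did Kcnmb1, an accessory subunit of the calcium-activated class. The first search letters found 14 of the 21 voltage-gated subunits and missed the Kcnc and Kcnd genes. They were then widened to cover those genes, so the full count of 21 was fixed by the search and is only a description. Among 19227 other coding genes 0.687% held a match to the first letters and 1.25% to the widened ones. The coding sequence of the filter is shown for 6 of the 8 genes that differed among the groups, with the filter codons in capitals, because it places each of them in its channel class.
Kcnc1: atgacgACACTGGGCTATGGAgacatg
Kcnd2: atgacaACACTGGGGTATGGCgacatg
Kcnv2: atctccACCGTGGGCTATGGAgacatg
Kcnj8: caagtgACCATTGGGTTTGGAgggaga
Kcnn1: ttcttgTCCATTGGCTATGGAgacatg
Kcnk3 first pore: atcaccACCATCGGCTATGGTcatgcg
Kcnk3 second pore: ctcaccACCATCGGCTTCGGCgactat

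Upstream windows were matched in RefSeq (GRCm38.p6) for 36 of the 51 members. They are shown for Kcnc1, which was higher in EC KO and Total KO, and for Kcnd2 and Kcnj8, which were lower in CM KO than in Control. Each gives the 250 bases before the start, 5′ to 3′ on the gene's strand, with capitals for GC boxes (GGGCGG, either strand): chr7:46396218-46396467 on the plus strand for Kcnc1, chr6:21215096-21215345 on the plus strand for Kcnd2 and chr6:142571615-142571864 on the minus strand for Kcnj8. The starts are those of RefSeq. GENCODE M21 begins Kcnj8 at the same base, Kcnc1 29 bases farther downstream and Kcnd2 157 bases farther downstream, so the windows of these last genes do not end at the GENCODE start.
Kcnc1 upstream: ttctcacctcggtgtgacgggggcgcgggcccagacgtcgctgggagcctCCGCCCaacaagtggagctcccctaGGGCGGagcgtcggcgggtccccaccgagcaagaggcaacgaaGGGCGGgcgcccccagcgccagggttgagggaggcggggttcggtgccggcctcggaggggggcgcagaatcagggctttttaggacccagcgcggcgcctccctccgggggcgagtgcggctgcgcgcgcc
Kcnd2 upstream: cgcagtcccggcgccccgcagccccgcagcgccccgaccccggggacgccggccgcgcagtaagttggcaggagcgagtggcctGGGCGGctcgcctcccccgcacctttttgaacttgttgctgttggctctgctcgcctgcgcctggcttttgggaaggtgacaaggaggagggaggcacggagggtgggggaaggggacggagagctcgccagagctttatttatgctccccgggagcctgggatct
Kcnj8 upstream: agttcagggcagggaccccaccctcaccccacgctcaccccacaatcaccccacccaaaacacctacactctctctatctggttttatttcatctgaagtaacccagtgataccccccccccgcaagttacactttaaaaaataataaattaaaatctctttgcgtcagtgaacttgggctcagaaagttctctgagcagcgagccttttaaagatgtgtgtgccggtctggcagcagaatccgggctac
The Kcnc1 window was 74.4% G or C with 3 GC boxes, the Kcnd2 window 68.8% with 1, and the Kcnj8 window 49.2% with none. A GC box stood in 20 of the 53 windows of members (37.7%) and in 32.7% of all 32851 windows. A TATA box (TATAAA, either strand) stood in 0 of the 53 and in 12.4% of all. Such matches describe these letters alone.

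Levels between genes are compared per kb of exon. Kcnip2, the accessory subunit of the transient outward channel, was highest with a mean of 1466 normalized counts per kb over all libraries. Kcnk3, an acid-sensitive leak channel, followed with 1119, and Kcnj11, the pore of the ATP-sensitive channel, with 860.0. The next were Kcng2, a modifying pore subunit, with 444.5, Kcnj8, the other ATP-sensitive pore, with 290.3, and Kcnh2, which carries a rapid delayed rectifier current, with 248. Of the summed normalized count of the members, inward rectifiers held 28.3%, voltage-gated pore subunits 25.4%, accessory subunits 23.5%, 2-pore-domain channels 20.5%, calcium- or sodium-activated channels 2.03% and the non-coding Kcnq1ot1 0.256%. Thus 3 genes of 3 different roles led the whole family.

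**Figure D1:**
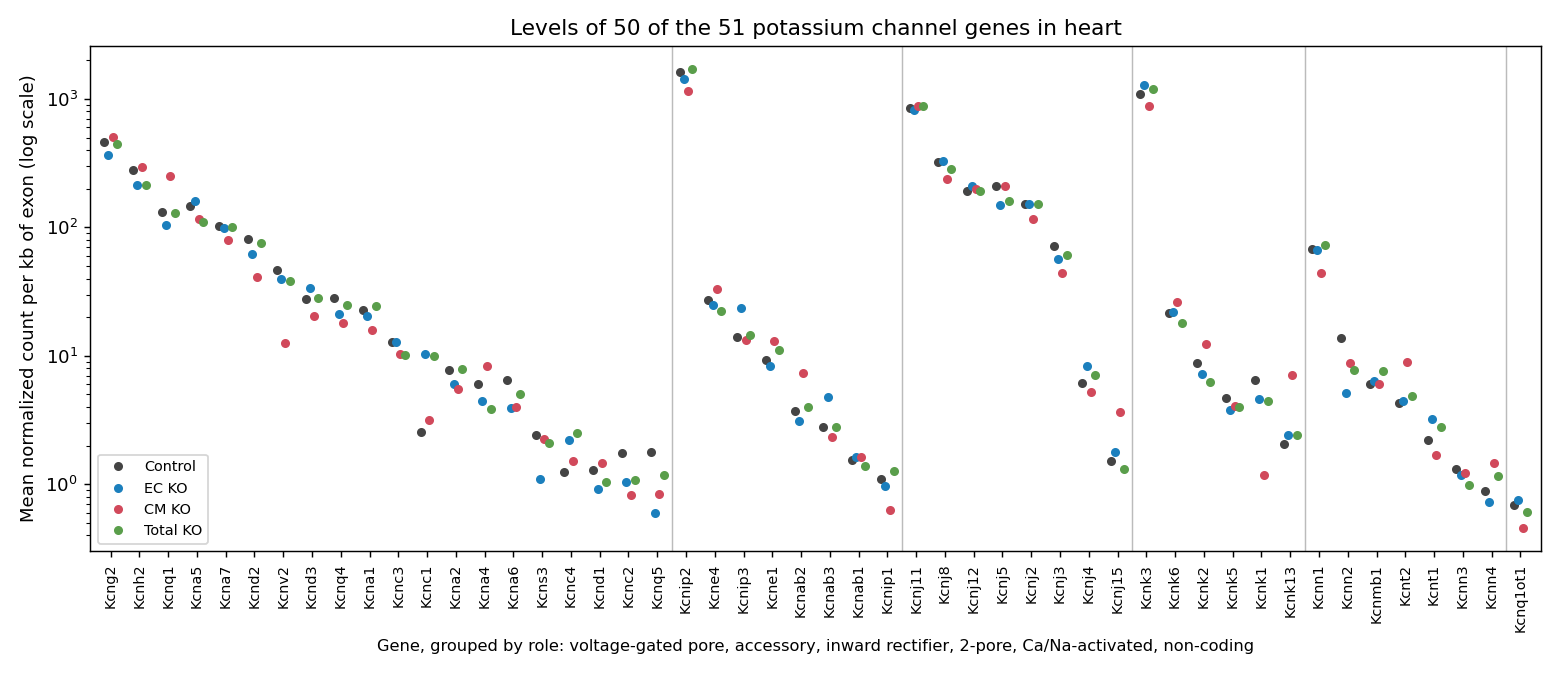
Mean normalized count per kb of exon (log scale) of 50 of the 51 genes in the 4 groups, ordered by role and level; each point is a group mean (Control n = 2, knockouts n = 3). Kcnip2, Kcnk3 and Kcnj11 lead in every group, and Kcnc1 and Kcnv2 show wide gaps between groups.

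Of the 51 members, 42 had a mean of at least 10 and were tested. The other 9 (Kcnab3, Kcnc2, Kcnc4, Kcnd1, Kcnip1, Kcnk1, Kcnn4, Kcnq5 and Kcns3) lay between 0 and 24.2 normalized counts in single libraries. In EC KO replicate 1, where 1 read is worth 6.04, 5 of these 9 stood at 0. Among the 4 groups, 8 of the 42 differed (19.05%; limma F test, adjusted p under 0.05), against 14.3% of all 12976 tested genes. Those reported here were Kcnc1 (adjusted p = 0.00225), Kcnq1 (0.00980), Kcnv2 (0.0137), Kcnd2 (0.0145), Kcnn1 (0.0181), Kcnj8 (0.0206) and Kcnk3 (0.0225). By role these were 5 of 16 voltage-gated pore subunits, 1 of 8 inward rectifiers, 1 of 5 2-pore-domain channels, 1 of 6 calcium- or sodium-activated channels and 0 of 6 accessory subunits. The count was 4 without CM KO replicate 1 and 5 without the replicates 1 of EC KO, CM KO and Total KO together. The shares of all genes in those fits are not given here, so these counts are no result about the members as a set.

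**Figure D2:**
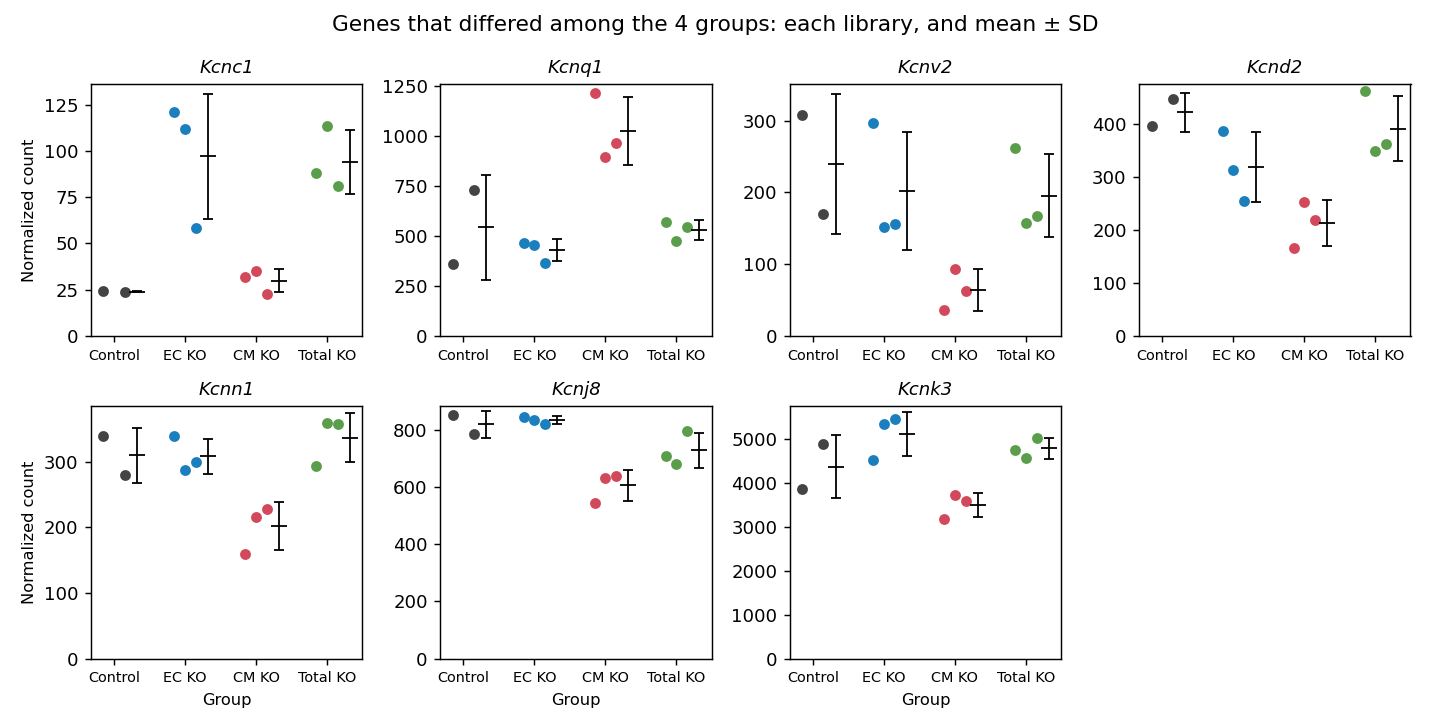
Normalized count in each library (points) with the group mean ± SD (bars; Control n = 2, knockouts n = 3) for 7 of the 8 genes that differed among the groups. Kcnc1 is high in EC KO and Total KO, Kcnq1 is high in CM KO, and Kcnv2, Kcnd2, Kcnn1, Kcnj8 and Kcnk3 are lowest in CM KO.

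Kcnc1, a fast-activating voltage-gated channel best known from neurons, read 24.1 and 23.9 in the Control libraries, 121, 112 and 58.4 in those of EC KO, 31.6, 35.0 and 22.9 in those of CM KO, and 87.8, 113 and 80.9 in those of Total KO. The EC KO and Total KO libraries all lay above the Control and CM KO libraries, with no overlap, and the highest value was that of EC KO replicate 1. It was the single member called against Control in EC KO (log2 difference 1.90 ± 0.31, SE; limma, adjusted p = 0.0249), where 0.316% of all genes were called, and in Total KO (1.91 ± 0.31; limma, adjusted p = 0.0477), where 0.0848% were. Leaving out the replicates 1 of EC KO, CM KO and Total KO together left 0 calls in EC KO and 1 in Total KO. For that fit the shares of all genes are not given here. The comparisons of EC KO and of Total KO with Control share the Control libraries. The rise in EC KO ranged from 1.71 to 2.23 with single libraries left out and no longer passed without either Control library or without EC KO replicate 1 or 2. The rise in Total KO ranged from 1.77 to 2.01 and no longer passed without either Control library, EC KO replicate 2, CM KO replicate 2 or any one Total KO library. Against CM KO the gene was higher by 1.62 ± 0.27 with EC KO (adjusted p = 0.00248 by limma) and by 1.63 ± 0.27 with Total KO (adjusted p = 0.00424), and both calls held whichever library was left out. In EC KO minus Control 5 of 42 members had an unadjusted p under 0.05 (11.9%), against 10.45% of all genes. Beyond Kcnc1 these included Kcnn2 (-1.49 ± 0.39), Kcnj5 (-0.50 ± 0.15) and Kcnip3 (0.72 ± 0.28), none of which passed the adjusted limma test. DESeq2 on the recovered reads called Kcnn2 (-1.245; adjusted p = 0.0287), and edgeR did not (-1.22; adjusted p = 0.128). Kcnn2 read 75.4 and 132 in the Control libraries and 18.1, 54.4 and 42.4 in those of EC KO. The 18.1 of EC KO replicate 1 is worth 3 reads. The limma difference ranged from -1.89 to -1.04 with single libraries left out.

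In CM KO 6 members differed from Control (14.3%, with 1 higher and 5 lower), against 5.7% of all genes (3.29% higher and 2.4% lower). The median log2 difference was -0.14 over the 42 members and -0.0042 over all genes. The count was 2 without the replicates 1 of EC KO, CM KO and Total KO together and 2 when CM KO replicate 1 was omitted. It was 0 in a fit to these 2 groups alone. The shares of all genes in these fits are not given here, so the lower counts are no result about the members as a set. Kcnq1, the pore of the slow delayed rectifier, read 359 and 728 in the Control libraries, 465, 455 and 366 in those of EC KO, 1215, 895 and 964 in those of CM KO, and 572, 477 and 543 in those of Total KO. All 3 CM KO libraries lay above all the others, and the Control libraries lay apart from each other. It was higher in CM KO than in Control by 0.99 ± 0.24 (limma, adjusted p = 0.0324), a difference of 0.48 without Control replicate 1 and at most 1.498 with other single libraries left out. It no longer passed without Control replicate 1, CM KO replicate 1, CM KO replicate 3 or Total KO replicate 3. Against CM KO it was lower by 1.25 ± 0.21 in EC KO (limma, adjusted p = 0.00242), with every library left out in turn, and by 0.94 ± 0.21 in Total KO (limma, adjusted p = 0.0125), a call lost without CM KO replicate 1 (lowest size 0.81). Of the exon bases of Kcnq1, 121 (2.96%) overlap Kcnq1ot1 on the opposite strand, and the strand setting of the counting is not given. Kcne1, its accessory subunit, did not pass in CM KO minus Control (0.46 ± 0.30).

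Kcnv2, a silent subunit that modifies other voltage-gated channels, read 308 and 170.0 in the Control libraries, 296, 151 and 156 in those of EC KO, 36.3, 93.9 and 63.0 in those of CM KO, and 262, 158 and 167 in those of Total KO. Every CM KO library lay below every other library. It was lower in CM KO than in Control (-1.92 ± 0.40; limma, adjusted p = 0.0219), a difference between -2.34 and -1.49 with single libraries left out, which no longer passed without Control replicate 1. Against CM KO it was higher by 1.66 ± 0.36 for EC KO (adjusted p = 0.00814 by limma) and by 1.65 ± 0.36 for Total KO (adjusted p = 0.0107), whichever library was left out. Without the replicates 1 of EC KO, CM KO and Total KO together these differences were 0.99 and 1.07, and both were still called.

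Kcnd2, a pore of the fast transient outward current, read 396 and 447 in the Control libraries, 387, 314 and 255 in those of EC KO, 166, 253 and 219 in those of CM KO, and 461, 349 and 362 in those of Total KO. The CM KO libraries were the lowest of the 11. It was lower in CM KO than in Control (-1.003 ± 0.20; limma, adjusted p = 0.0193), between -1.14 and -0.84 with single libraries left out, and no longer passed without either Control library. Against CM KO it was higher in Total KO by 0.88 ± 0.18 (limma, adjusted p = 0.00830) with every library left out in turn. In EC KO it was higher by 0.58 ± 0.18 (limma, adjusted p = 0.0415), a call lost without EC KO replicates 1 or 2, CM KO replicates 1 or 3 or Total KO replicates 2 or 3 (0.41 to 0.73). It was 0.26 without the 3 replicates 1 together, and the call was also lost with no filter, under both rescalings, in a fit to the 2 groups alone and by edgeR. The other pore of this current, Kcnd3, differed by 0.72 ± 0.18 between EC KO and CM KO (adjusted p = 0.0149 by limma; 0.67 to 0.81 over single omissions), a call lost without CM KO replicate 1. Kcnip2 gave 0.57 ± 0.14 for Total KO minus CM KO (adjusted p = 0.0203 by limma), a call lost without Total KO replicate 3 (lowest value 0.43). In CM KO minus Control it did not pass by limma (-0.48 ± 0.16) or by edgeR, though DESeq2 called it there (-0.50, adjusted p = 0.0378).

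Among the inward rectifiers, Kcnj8 read 852 and 785 in the Control libraries, 846, 835 and 819 in those of EC KO, 545, 631 and 640 in those of CM KO, and 707, 680 and 797 in those of Total KO. Its product forms the ATP-sensitive channel of vascular smooth muscle. It was lower in CM KO than in Control (-0.44 ± 0.11; limma, adjusted p = 0.0329), between -0.50 and -0.36 with single libraries left out, and no longer passed without either Control library, EC KO replicate 2 or CM KO replicate 1. The 8 pericyte and smooth muscle markers summed to 9439 to 10754 in CM KO and 8019 to 9418 in Control, with Acta2 higher (1.49; limma, adjusted p = 0.00788), Rgs5 lower (-0.42; limma, adjusted p = 0.0290) and the other 6 not called. Their part in the Kcnj8 difference was not tested. Kcnj3, a subunit of the acetylcholine-activated channel, read 413 and 339 in the Control libraries, 326, 256 and 309 in those of EC KO, 201, 249 and 241 in those of CM KO, and 391, 299 and 255 in those of Total KO. It was lower in CM KO than in Control (-0.70 ± 0.18; limma, adjusted p = 0.0424), between -0.85 and -0.56, and no longer passed without either Control library, EC KO replicate 3, CM KO replicate 1 or 3 or Total KO replicate 2. Of the exon bases of Kcnj3, 31.1% overlap Gm26794 on the opposite strand. Its partner Kcnj5 gave -0.47 ± 0.14 for EC KO minus CM KO (adjusted p = 0.0321 by limma; -0.55 to -0.31 over single omissions), a call lost without EC KO replicates 1 or 2 or CM KO replicate 2, with the CM KO minus Control difference at -0.03 ± 0.15. The highest inward rectifier, Kcnj11, gave differences of -0.01 ± 0.16, 0.09 ± 0.16 and 0.09 ± 0.16 from Control in EC KO, CM KO and Total KO, and Kcnj2 and Kcnj12, of the main resting current, did not pass either (-0.41 ± 0.25 and 0.04 ± 0.21 in CM KO).

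Kcnk3 read 3865 and 4883 in the Control libraries, 4532, 5345 and 5465 in those of EC KO, 3182, 3719 and 3589 in those of CM KO, and 4749.6, 4572 and 5032 in those of Total KO. It was higher than in CM KO by 0.55 ± 0.11 in EC KO (limma, adjusted p = 0.00620), whichever library was left out, and by 0.45 ± 0.11 in Total KO (limma, adjusted p = 0.0172), a call lost when either CM KO replicate 1 or Total KO replicate 3 was omitted (0.39 to 0.50 over single omissions). The CM KO libraries were the lowest of the 11. Kcnn1, a small-conductance calcium-activated channel, read 340 and 280 in the Control libraries, 338, 287 and 299 in those of EC KO, 160, 216 and 228 in those of CM KO, and 294, 359 and 357 in those of Total KO. It was lower in CM KO than in Control (-0.63 ± 0.17; limma, adjusted p = 0.0468), between -0.77 and -0.47 with single libraries left out, a call lost without either Control library, EC KO replicate 2 or 3, CM KO replicate 1 or Total KO replicate 2 or 3. Against CM KO it was higher by 0.62 ± 0.15 for EC KO (adjusted p = 0.0132 by limma) and by 0.75 ± 0.15 for Total KO (adjusted p = 0.00757), whichever library was left out. Without the 3 replicates 1 together the EC KO value was 0.40 and no longer passed. The classical cardiac genes Kcna5, Kcnh2 and Kcnn2 passed in none of the 6 comparisons by limma, and Kcne1 and Kcnmb1 likewise; Kcnn2 passed by DESeq2 in EC KO minus Control, as given above.

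**Figure D3:**
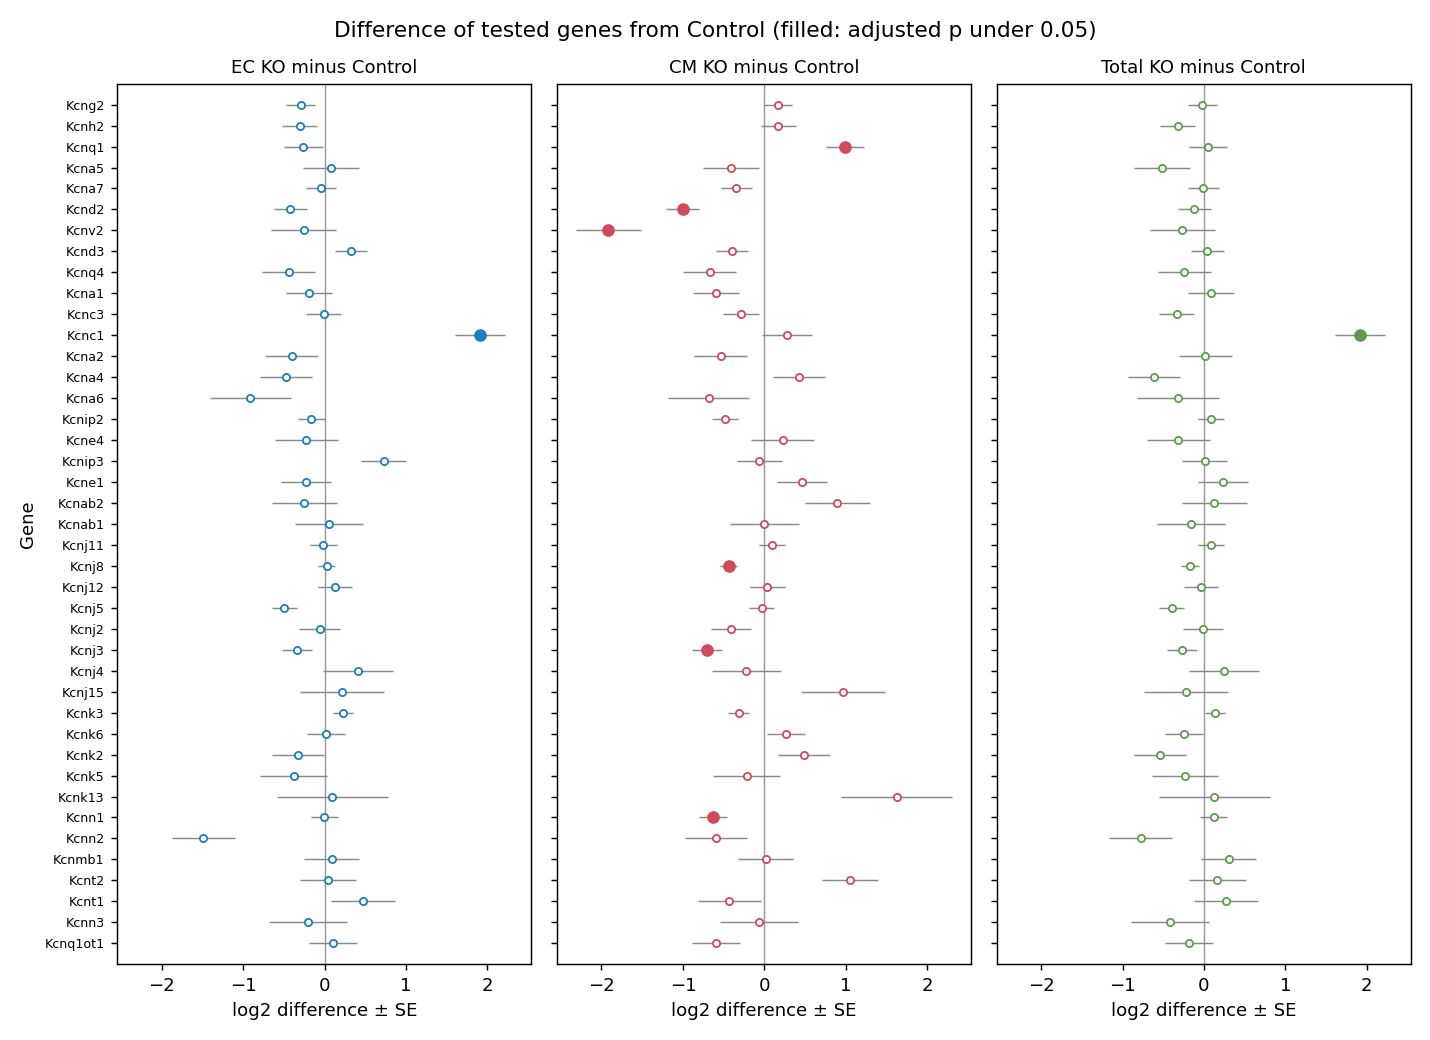
Log2 difference from Control ± SE (limma) of 41 of the 42 tested genes in EC KO, CM KO and Total KO, with filled points for adjusted p under 0.05. The filled points are Kcnc1 in EC KO and Total KO (1.90 and 1.91) and 6 genes in CM KO, from Kcnv2 at -1.92 to Kcnq1 at 0.99.

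Between EC KO and CM KO 14 of 42 members differed (33.3%, with 8 higher and 6 lower in EC KO), against 19.1% of all genes (8.72% higher and 10.4% lower). Between Total KO and CM KO 10 differed (23.8%, with 6 higher and 4 lower), against 16.4% (8.2% in each direction). The member medians were 0.08 and -0.0088, beside -0.0024 and -0.0052 over all genes. The comparisons share the CM KO libraries. Without CM KO replicate 1 the counts were 8 and 6, as they were without the 3 replicates 1 together, and 6 without Total KO replicate 3 for the second. For these fits, too, the shares of all genes are not given here. Further genes were Kcna4, of the slow transient outward current (-0.91 ± 0.29 for EC KO, adjusted p = 0.0425 by limma, and -1.05 ± 0.29 for Total KO, adjusted p = 0.0265), Kcnab2, an accessory subunit (-1.15 ± 0.36 in EC KO, adjusted p = 0.0404), Kcnt2, a sodium-activated channel (-1.01 ± 0.31 in EC KO, adjusted p = 0.0393), Kcnip3 (0.79 ± 0.25 in EC KO, adjusted p = 0.0443) and Kcnk2, a mechanosensitive leak channel (-1.03 ± 0.29 in Total KO, adjusted p = 0.0284). Each of these 6 calls was lost on leaving out at least 5 of the 11 libraries, one at a time, and Kcnab2 stood at -0.61 without the 3 replicates 1 together. Total KO and EC KO differed in 0 members (limma), against 0.0385% of all genes. Of the 42, 1 had an unadjusted p under 0.05 (Kcnip3, -0.71 ± 0.25), and edgeR and DESeq2 also gave 0 calls.

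**Figure D4:**
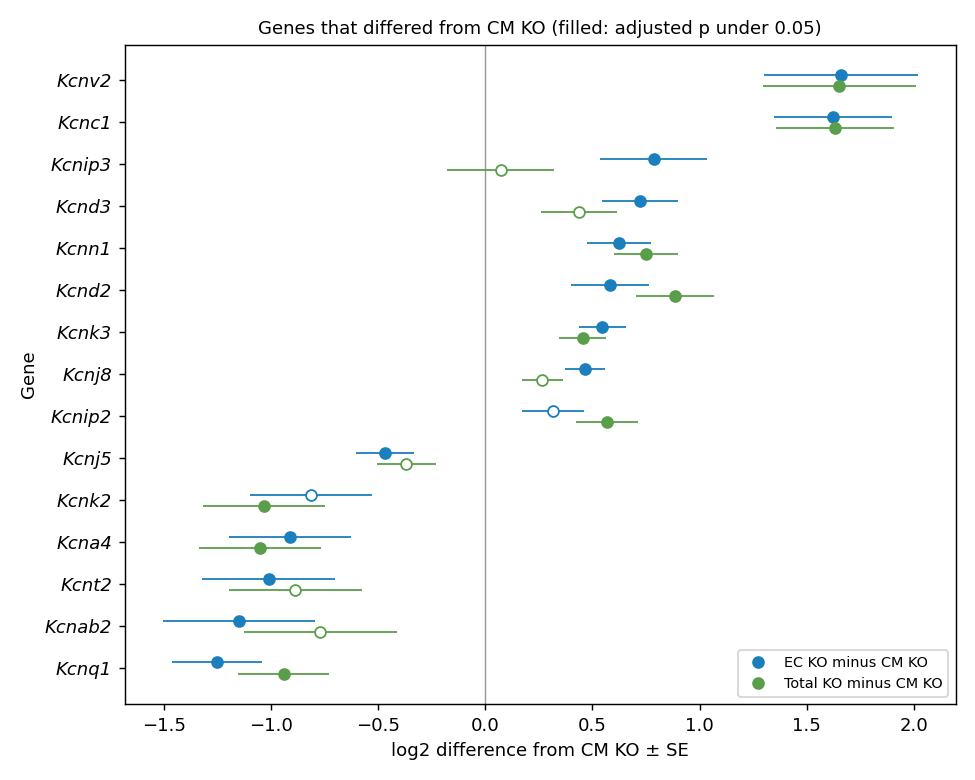
Log2 difference from CM KO ± SE (limma) in EC KO and Total KO for 15 of the 16 genes that passed in either comparison, with filled points for adjusted p under 0.05. Kcnv2 and Kcnc1 lie highest (1.62 to 1.66), and Kcnq1 lies at -1.25 and -0.94.

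The CM KO libraries also carried fewer counts over the ventricular list and more fibroblast and macrophage marker counts (sums above). Of the tested markers 4 of 8 fibroblast and 6 of 7 macrophage genes were higher in CM KO than in Control. Of the ventricular list 0 of 8 genes were called. Its median log2 difference was -0.31, and Irx4 alone was higher (0.40). The mean of Myh6, a large part of the sum, was 428790 in Control and 316600 in CM KO. The sum thus does not show a loss particular to the ventricle. In whole tissue, fewer cells of a type and less RNA per cell cannot be told apart, and the part of these shifts in the channel differences was not tested. The Control libraries themselves differed by more than 1.5-fold in 13 of the 42 tested members. They did so in 11.3% of the 12206 tested genes that had a transcript GC content. Over these 12206 genes the log2 difference of Control replicate 2 from replicate 1 was taken in 3 bins of equal size. Its medians were -0.15, 0.02 and 0.17 from low to high transcript GC content. The members in those bins gave -0.19 (10 genes), -0.11 (11) and 0.34 (21). The Pearson correlation of GC content with the difference from Control was -0.0038 in EC KO, 0.155 in CM KO and 0.149 in Total KO over the 12206 genes. In CM KO it was 0.0586 over the 42 tested members. The part of GC content in the differences from Control was not tested.

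Of 30 fixed partner genes (auxiliary subunits, scaffolds, regulators), 25 were tested. One was called in EC KO minus Control: Rnf207, a regulator of Kcnh2 channels, read 1621 and 1541 in the Control libraries, 737, 651 and 779 in those of EC KO, 1203, 1608 and 1599.6 in those of CM KO, and 1060.4, 718 and 1006 in those of Total KO (-1.13 ± 0.17 in EC KO; limma, adjusted p = 0.0155). The Rnf207 difference ranged from -1.19 to -1.06 with single libraries left out. It no longer passed without either Control library or without EC KO replicate 1 or 2. This call was 4% of the 25, against 0.316% of all genes. No partner was called in CM KO or Total KO minus Control (limma). An unadjusted p under 0.05 (limma) was held by 5 of the 25 in EC KO (20%), 6 in CM KO (24%) and 5 in Total KO (20%). Over all genes these shares were 10.45%, 21.0% and 8.11%. Lrrc52, an auxiliary subunit of large-conductance channels, read 38.9 and 20.1 in the Control libraries, 151, 134 and 103 in those of EC KO, 3.86, 16.8 and 13.9 in those of CM KO, and 146, 105 and 88.4 in those of Total KO. It was higher than in CM KO by 3.56 ± 0.43 for EC KO (adjusted p = 0.000467 by limma) and 3.36 ± 0.43 for Total KO (adjusted p = 0.000992). In all, 4 partners were higher and 2 lower in EC KO than in CM KO (24% of the 25, against 19.1% of all genes), and 4 higher and 1 lower in Total KO (20%, against 16.4%). The sulfonylurea receptor Abcc9, which pairs with Kcnj8 and Kcnj11, passed in none of the 6 comparisons by limma. Abcc8, the other sulfonylurea receptor among the partners, gave -0.51 ± 0.16 for EC KO minus CM KO (adjusted p = 0.0459 by limma). Abcc8 passed in no other comparison, with 0.56 ± 0.18 for CM KO minus Control (adjusted p = 0.0928 by limma). Whether the Abcc8 call held with single libraries left out is not given here.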

How the data were processed

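The deposited signal values are gene counts that the authors divided by a factor per library; per the submitters' processing notes TopHat2, HTSeq 0.8.0 and DESeq2 (given as 3.5) were used on mm10, and the counting mode, strand setting, annotation and filters are not given in the sources used here. All 257620 values lay within 0.05 reads of whole multiples of a library's step (100%), so whole reads were recovered. The 2268403 reads of EC KO replicate 1 limit its precision.

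The 12976 genes whose mean reached 10 were analysed as log2(value + 1), so differences of low genes are understated. All 11 libraries entered a single limma 3.58.1 fit (R 4.3.3) with a trended prior, which gave 6 contrasts and an F test against Control, and Benjamini-Hochberg adjustment over all genes within each, called under 0.05. The fit was also run on simulated counts with planted changes. These lacked the trend of the Control libraries with GC content, and the outcome is not given here, so no call rests on it. Alternatives were pseudocounts, filters, rescalings, a 2-group fit, library weights, edgeR 4.0.16 and DESeq2 1.42.0 on the recovered reads, and each library left out; leaving out 3 libraries together was added after the values were seen. Exon lengths, overlaps and transcript GC content come from GENCODE M21 (mm10), and coding frames were the longest reading frame of the longest coding transcript. The amino acid pattern for the filter was widened after a first search.

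The members and lists were chosen with earlier results of these data known. Genes named are those called, the 4 of lowest p in each comparison, a fixed set of classical cardiac channels, the highest member of each role, the genes next to the limit of 5, called partners and Cd36; other genes given were chosen after their values were seen. A few items that this rule covers are not reported here.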

Additional observations from a re-analysis of the deposited data

How the results depend on the processing

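No paired analysis was possible because the labels give each library a number of its own and link no library of one group to one of another. Alternatives were run for the genes and comparisons called, of lowest p, or given as not passing: of 1282 values, 1111 stayed on the same side of the threshold, 151 no longer passed, 7 passed anew and 13 changed sign. No called difference changed sign; the 13 were differences near 0 that passed in no setting. Kcnj11 changed sign in EC KO minus Control to 0.024 with library weights and to 0.056 with 3 libraries left out, within -0.34 to 0.31 over single omissions, and lay within -0.24 to 0.42 over these in CM KO and -0.24 to 0.42 in Total KO. In CM KO minus Control, Kcnj12 changed sign to -0.024 with library weights (-0.17 to 0.15 over single omissions), and Kcnj5 to 0.057 by library totals and 0.0516 with 3 libraries left out (-0.19 to 0.062). Of the 7 that passed anew, 5 were Cd36 in Total KO minus Control; the others were Kcnn2 and Kcnip2 by DESeq2, given above. The count of members called among the 4 groups, 8, was 15 with a weight per library and 17 by DESeq2, 5 with 3 libraries left out together, and 4 to 11 with single libraries left out. For EC KO minus Control, 1 became 0 without a filter, in the 2-group fit, with library weights and with 3 libraries left out, and 2 by DESeq2, with 0 to 1 over single omissions. For CM KO minus Control, 6 became 3 by library totals and by library weights, 0 in the 2-group fit and 2 with 3 libraries left out, with 0 to 6 over single omissions. For Total KO minus Control, 1 became 0 at a filter of 50, without a filter and with library weights, with 0 to 1 over single omissions. For EC KO minus CM KO, 14 became 9 without a filter and 8 with 3 libraries left out, with 8 to 15 over single omissions. For Total KO minus CM KO, 10 became 16 with library weights and 6 with 3 libraries left out, with 6 to 12 over single omissions. Over all genes, edgeR on the recovered reads called 2140 among the 4 groups, 50 for EC KO, 1007 for CM KO and 14 for Total KO against Control, and DESeq2 called 2743, 162, 1276 and 93. The members among the edgeR calls numbered 12, 1, 6 and 1. For the other settings the number of all genes called is not given here. The member counts in those settings therefore cannot be set against all genes, and are no result about the members as a set. The cause of the shifts in these counts was not tested. Leaving out a Control library leaves a lone one, assumed to vary like the other groups. Depth limits the 9 untested members and EC KO replicate 1, where 3 reads are worth 18.1.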
